A study of Macaca mulatta with 23 samples.

Results

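The genes of the mitochondrial ribosome were taken as every array feature whose gene symbol begins with MRPL or MRPS and whose detection p-value, the scanner's test against the negative control beads, was under 0.05 on at least 5 of 23 arrays. Of 115 such features for 80 symbols, 78 features for 64 genes passed, out of 15751 features in the whole series that did. The 64 genes comprised 39 genes with MRPL symbols, given to the large subunit, 24 with MRPS symbols, given to the small subunit, and the pseudogene MRPS31P5. By place in the known structure 41 belong to the large and 22 to the small subunit, since MRPS18A and MRPS30 sit in the large subunit. They are 64 of the 9190 genes tested, each represented by its brightest passing feature.

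The samples were CD8+ effector memory T cells (TEM) sorted from the blood of 12 rhesus macaques and measured on a bead array designed for human genes. One arm of 6 animals received an IgG1 control antibody and the other arm of 6 animals received an antibody against interleukin 15 (IL-15), a cytokine on which natural killer cells and memory CD8+ T cells depend. Each animal was sampled before and after treatment, except animal 3 of the anti-IL-15 arm, which has only an array after treatment. This gave 6 control arrays before and 6 after, and 5 anti-IL-15 arrays before and 6 after, with 11 complete pairs. Dose, interval, age and sex are not given in the sources used here.

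Mitochondrial ribosomes make the few proteins that mitochondrial DNA encodes, all of them membrane subunits of the respiratory chain and ATP synthase. Their proteins are encoded in the nucleus and imported, so that the large and small subunits join imported proteins to ribosomal RNA made inside the organelle. Many of these proteins have bacterial homologues, and others exist only in mitochondria. In mouse CD8+ T cells, IL-15 is known to raise respiratory reserve in memory cells, and mitochondrial translation is known to sustain killing by cytotoxic cells.

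Between 11263 and 14132 features were detected per array. CD3D, a chain of the T cell receptor complex, and CD8A were detected on all 23 arrays, while CD3E, CD4 and the naive cell marker CCR7 did not pass the detection filter and CD8B was detected on 9. Haemoglobin HBB was detected on all 23 arrays, at normalised log2 levels from 8.14 to 14.17. The labels give the number of sorted cells, which ran from 150000 to 500000 in the control arm before treatment and from 66000 to 259557 after it. In the anti-IL-15 arm it ran from 112000 to 274000 before and from 20000 to 109000 after. The level of a feature for 28S ribosomal RNA changed by between -3.62 and 4.28 on the log2 scale from before to after within single animals. In such bulk samples fewer cells of a type and less RNA per cell cannot be told apart, and an equal mass of RNA entered each amplification, so that levels are relative to total RNA.

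Most mitochondrial ribosomal protein genes had a change above 0 in each arm, but few passed the test one by one, and the direction turned when cell number entered the fit. The median change of the 64 members, after minus before, was 0.25 on the log2 scale in the anti-IL-15 arm and 0.16 in the control arm, beside -0.05 and -0.04 for all 9190 genes. With anti-IL-15, 50 of the 64 members (78.1%) had a change above 0, beside 42.4% of all genes. With the control antibody it was 43 of 64 (67.2%), beside 44.8% of all genes. With cell number as a covariate 19 of 64 lay above 0 with anti-IL-15 and 23 with control antibody. The medians in that fit were -0.157 and -0.063, beside 0.006 and 0.001 for all genes. With 75th percentile scaling the control median was 0.018 with 37 of 64 above 0, beside a median of -0.072 for all genes. With the 28S level as a covariate the anti-IL-15 median was 0.083, beside -0.017 for all genes. The control median in that fit was 0.149, beside -0.034 for all genes. In both arms together, 40 members were above 0 in each and 11 were below 0 in each.

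Changes in the 2 arms came from 1 limma fit across all 9190 genes with each animal as a block, and calls were made at a Benjamini-Hochberg adjusted p under 0.05 over all genes. With anti-IL-15, 1 of 64 members (1.56%) was called, beside 0.816% of all genes. With the control antibody 3 of 64 (4.69%) were called, beside 2.19% of all genes. For the mean of the 2 arms' changes, which uses all 11 pairs, 7 of 64 members (10.9%) were called, 6 higher and 1 lower, beside 7.09% of all genes, 2.95% higher and 4.15% lower. The share of members called in either arm rests on 1 and 3 genes. MRPL13, among the 3 and the 7, passed the detection filter only through the control arrays before treatment, where it was high, so that its place in these counts is tied to the filter. Among the 62 members that pass without their highest group, 2 (3.23%) were called with control antibody and 6 (9.68%) in the mean of both arms. At an unadjusted p under 0.05 there were 12 members for anti-IL-15 (18.8%, beside 15.3% of all genes) and 18 for IgG1 (28.1%, beside 19.2% of all genes).

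**Figure D1:**
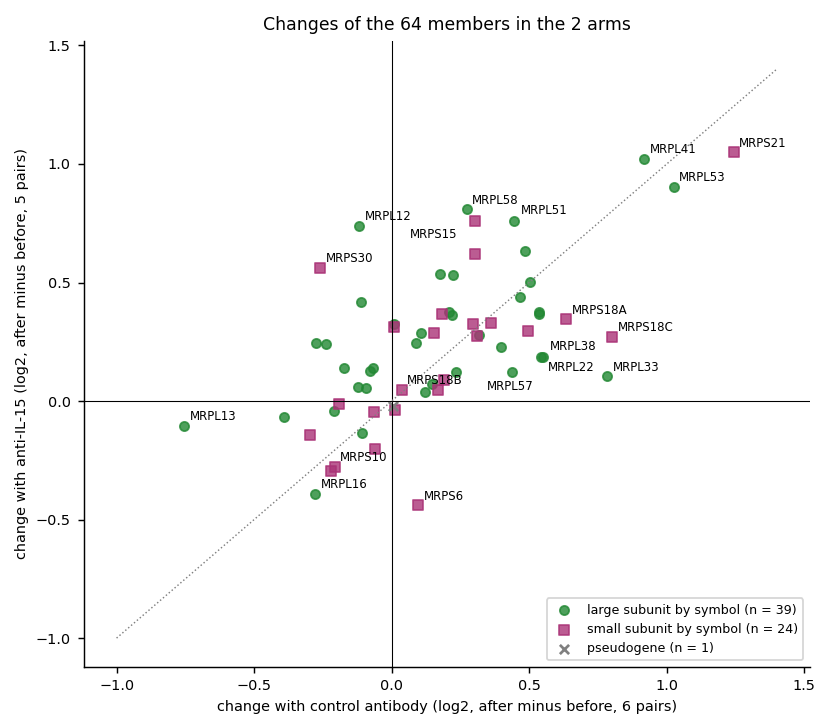
Change of each of the 64 members with the control antibody (horizontal axis, log2, after minus before, 6 pairs) against its change with anti-IL-15 (vertical axis, log2, 5 pairs), with large subunit genes as circles, small subunit genes as squares and the pseudogene as a cross; the dotted line marks equal change. MRPS21, MRPL53 and MRPL41 lie far up in both arms, MRPL13 lies lowest for the control antibody, and 40 members lie above 0 in both.

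Among the small subunit genes, MRPS21 had the largest change in both arms. It encodes the homologue of bacterial protein S21. Before control antibody its normalised log2 level was 4.86 at the lowest, 5.37 at the median and 6.21 at the highest of 6 arrays, and after it 5.71, 6.76 and 7.49. All 6 animals were higher after, although the ranges of the groups overlap. It rose by 1.24 ± 0.27 (SE), a 2.37-fold change, with an adjusted p of 0.0291. Before anti-IL-15 the 5 arrays read 5.78, 5.98, 6.14, 6.62 and 6.79, and after it the 6 arrays spanned 6.45 to 7.41 with a median of 7.31. All 5 paired animals were higher after, and the lowest array after treatment was that of the animal with no array before. The change was 1.05 ± 0.29 with an adjusted p of 0.098, and the mean of both arms rose by 1.15 ± 0.20 (adjusted p = 0.00485). Without control animal 1, 2 or 4 the call with control antibody was lost.

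MRPS15, the homologue of the bacterial S15 protein that binds the central domain of small subunit RNA, was higher after treatment in 5 of 5 anti-IL-15 animals. The 5 arrays before read 8.55, 8.60, 8.72, 8.97 and 9.22, and the 6 after spanned 9.25 to 9.80 with a median of 9.58. These 2 groups do not overlap. Its change was 0.76 ± 0.20 (SE) with an adjusted p of 0.0785. In the control arm the arrays spanned 8.35 to 9.24 before (median 8.57) and 8.47 to 9.37 after (median 8.95), overlapping widely, and 4 of 6 animals were higher. Its mean change over both arms rose by 0.53 ± 0.13 (adjusted p = 0.0262), a call lost without control animal 1, 2 or 4 or anti-IL-15 animal 1 or 5, and with 75th percentile scaling.

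MRPS18A, MRPS18B and MRPS18C are all related to bacterial protein S18 and occupy different places; MRPS18A and MRPS18B are classed here with the mitochondria-specific proteins because their sites have no bacterial counterpart. MRPS18C and MRPS18B belong to the small subunit, whereas MRPS18A sits in the large subunit in spite of its symbol. For MRPS18A the control arrays spanned 9.85 to 10.68 before (median 10.44) and 10.47 to 11.47 after (median 11.05). In the anti-IL-15 arm the 5 arrays before read 10.05, 10.49, 10.71, 10.83 and 11.01, and those after spanned 10.50 to 11.26 with a median of 11.02. The groups overlap in both arms, with 5 of 6 control and 5 of 5 anti-IL-15 animals higher after. It rose in the mean of both arms, by 0.49 ± 0.12 (SE, adjusted p = 0.0261), while the change with control antibody alone was 0.63 with an adjusted p of 0.0502. The call was lost without control animal 1 or 4 or anti-IL-15 animal 1, 2 or 5. MRPS18C was higher in 6 of 6 control animals, with a change of 0.80 ± 0.24 and an adjusted p of 0.0659, and its change with anti-IL-15 was 0.27. MRPS18B, measured near the detection limit, changed by 0.04 with the control antibody and by 0.05 with anti-IL-15.

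Large subunit genes made up the other calls. MRPL53, a mitochondria-specific protein of the large subunit, read 7.00 at the lowest, 7.91 at the median and 9.26 at the highest of 6 arrays before control antibody and 8.15, 9.13 and 9.41 after it. Every control animal was higher after, and the groups overlap. It rose by 1.03 ± 0.23 (SE), a 2.04-fold change, with an adjusted p of 0.0314. With anti-IL-15 the 5 arrays before read 8.50, 8.58, 9.14, 9.17 and 9.55 and those after spanned 9.19 to 10.07 with a median of 9.83. All 5 paired animals were higher after, with a change of 0.90 ± 0.25 and an adjusted p of 0.0939. The mean of both arms rose by 0.97 ± 0.17 (adjusted p = 0.0051). The call with control antibody was lost without control animal 1, 2 or 4.

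MRPL51, another mitochondria-specific protein of the large subunit, was the 1 member called with anti-IL-15. The 5 arrays before read 10.87, 11.09, 11.27, 11.51 and 11.65, and the 6 after spanned 11.72 to 12.45 with a median of 11.99. These groups do not overlap, and 5 of 5 animals were higher. It rose by 0.76 ± 0.17 (SE), a 1.69-fold change, with an adjusted p of 0.0462. In the control arm the arrays spanned 10.56 to 11.88 before (median 10.88) and 10.77 to 11.93 after (median 11.54), and 5 of 6 animals were higher, with a change of 0.44 ± 0.16 and an adjusted p of 0.121. The mean of both arms rose by 0.60 ± 0.12 (adjusted p = 0.00954). The anti-IL-15 call held in 9 of 25 alternative settings, with adjusted p from 0.0261 to 0.946, and was lost without anti-IL-15 animal 1, 2, 4 or 5 or control animal 1 or 5.

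MRPL41, a mitochondria-specific large subunit protein that has also been linked to p53 and BCL2 in human cells, rose in the mean of both arms by 0.97 ± 0.23 (SE, adjusted p = 0.0195). Control arrays spanned 7.46 to 10.18 before (median 8.22) and 8.13 to 10.38 after (median 9.47). The 5 anti-IL-15 arrays before read 8.29, 8.74, 8.80, 9.27 and 10.23, and those after spanned 9.55 to 11.03 with a median of 9.74. In both arms the groups overlap, and 4 of 6 control and 5 of 5 anti-IL-15 animals were higher. The changes within each arm, 0.92 and 1.02, had adjusted p-values of 0.103 and 0.16. Its spread was wide, from -0.27 in control animal 6 to 2.92 in control animal 4, and the call was lost without control animal 1 or anti-IL-15 animal 1 or 5. With cell number as a covariate its mean change was -0.08.

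MRPL13, the homologue of bacterial L13, an early binding protein of the large subunit, was the 1 member called lower. Its feature was detected on 6 of 6 control arrays before treatment and on 0 of 6 after, and on 3 of 5 and 1 of 6 in the anti-IL-15 arm. Control arrays spanned 5.14 to 5.59 before (median 5.33) and 4.42 to 4.79 after (median 4.54), without overlap, and 6 of 6 animals were lower. Since the feature was not above background on any control array after treatment, its level there is only bounded. It was at least 1.36-fold lower, set against the lowest signals detected on those arrays, a bound that was not tested. The measured means of the control arrays were 5.35 before and 4.60 after, and the limma fit of the measured values gave an adjusted p of 0.0104. The call was lost without control animal 1. Outside the control arrays before treatment the feature was detected on 4 arrays, under the 5 that the filter asks for, so that this call is no independent support for a fall. With anti-IL-15 the 5 arrays before read 4.64, 4.89, 4.96, 5.03 and 5.15 and those after spanned 4.47 to 4.97, overlapping. The fit's adjusted p for that change was 0.788. In the mean of both arms it was called lower (adjusted p = 0.0195), a call lost without anti-IL-15 animal 5, but with most arrays after treatment below background no size is given.

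**Figure D2:**
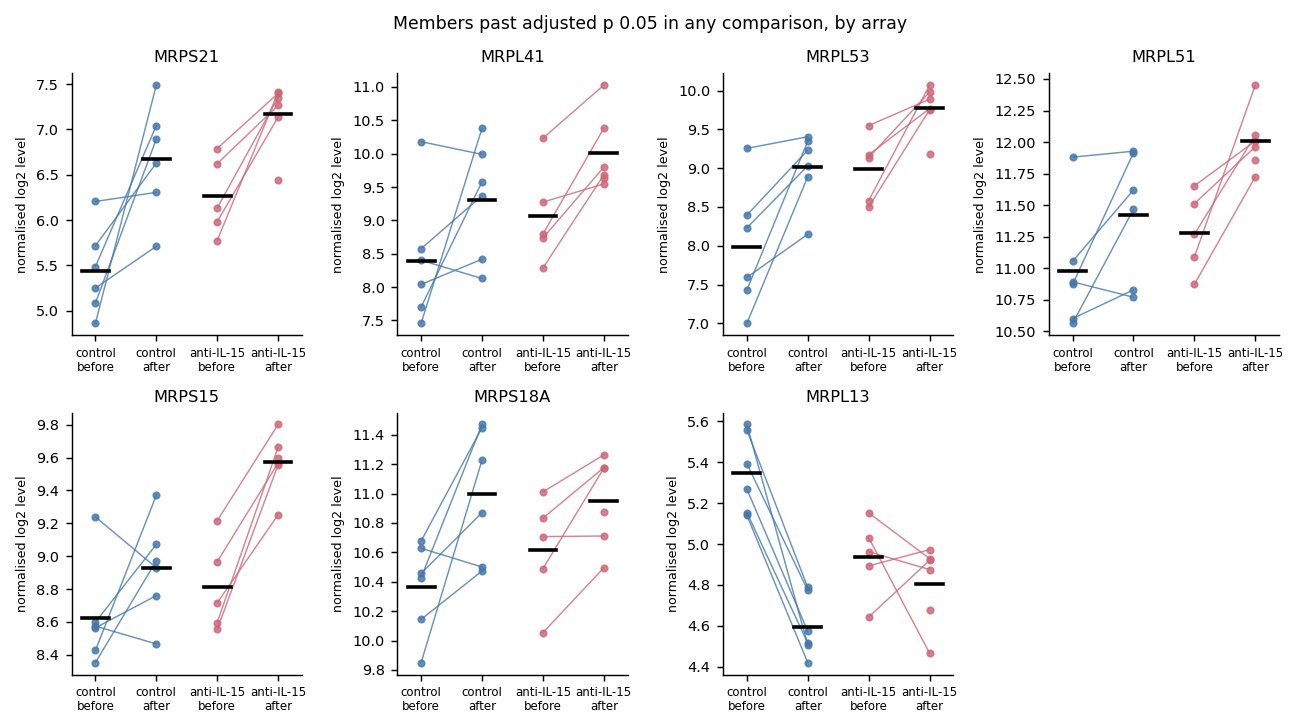
Normalised log2 level (vertical axes, 1 scale for each panel) of the 7 members called in any comparison, on every array of the 4 groups (horizontal axes); points are arrays, thin lines join the 2 arrays of an animal and black bars are group means. MRPL51 and MRPS15 do not overlap before and after anti-IL-15, MRPL13 does not overlap before and after control antibody, and the other pairs of groups overlap.

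Several more members had changes of 1 sign in all animals of an arm without passing the test. MRPL33, the homologue of bacterial L33, was higher in 6 of 6 control animals by 0.78 ± 0.21 (SE, adjusted p = 0.0502), with arrays from 7.30 to 8.28 before and from 8.37 to 8.99 after, which do not overlap. With anti-IL-15 its change was 0.11 ± 0.23, and 2 of 5 animals were higher. A second feature of MRPL33 gave 0.82 and 0.50 for the same changes. MRPL22, whose bacterial homologue lines the exit tunnel for new proteins, and MRPL57, a mitochondria-specific protein, were higher in 6 of 6 control animals by 0.54 and 0.44 (adjusted p = 0.115 and 0.19). MRPL16, whose bacterial homologue lies near the peptidyl transferase centre, was lower in 6 of 6 control animals, with a change of -0.28 and an adjusted p of 0.471. In the anti-IL-15 arm MRPL12, the stalk protein that recruits translation factors, was higher in 5 of 5 animals by 0.74 ± 0.25 (adjusted p = 0.169), and the small subunit gene MRPS10 was lower in 5 of 5, with a change of -0.28 (adjusted p = 0.513). In all, 12 members (18.8%) were higher in 5 of 5 anti-IL-15 animals and 8 members (12.5%) in 6 of 6 control animals, beside 4.96% of all genes in each arm. Lower in every animal were 1 member (1.56%) with anti-IL-15 and 2 (3.12%) with control antibody, beside 7.16% and 5.77% of all genes.

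No member was called as differing between the 2 arms. For the difference between the arms' changes, anti-IL-15 minus control, 0 of 64 members were called in the limma fit, beside 0.0109% of all genes, and 4 members (6.25%) had an unadjusted p under 0.05, beside 9.7% of all genes. The median difference was 0.02 beside -0.01 for all genes. MRPL12 had the largest, with a change 0.86 higher in the anti-IL-15 arm (95% interval 0.14 to 1.57, adjusted p = 0.457). MRPS30, another large subunit protein with a small subunit symbol, followed at 0.82 (0.05 to 1.59, adjusted p = 0.49), with changes of 0.56 with anti-IL-15 and -0.26 with control antibody. MRPL33 stood on the other side at -0.68 (-1.32 to -0.04, adjusted p = 0.494). The differences for MRPL58 and MRPS6 were 0.54 and -0.53, with adjusted p-values of 0.768 and 0.516. For MRPL13 the adjusted p was 0.348, and no size is given because its control level after treatment is only bounded. MRPL58 is the peptidyl-tRNA hydrolase of the large subunit that frees stalled ribosomes, and MRPS6 is the homologue of bacterial S6.

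Between arms at 1 time point, no member was called either. After treatment 0 of 64 members were called in the limma fit, beside 0.0109% of all genes, with 7 (10.9%) at an unadjusted p under 0.05, beside 7.97% of all genes. The median difference, anti-IL-15 minus control, was 0.18, and 47 of 64 members lay above 0 (73.4%, beside 45.7% of all genes). Before treatment 0 of 64 were called, beside 0% of all genes, again with 7 (10.9%) at an unadjusted p under 0.05, beside 10.5% of all genes. The median difference was 0.10, and 40 of 64 (62.5%) lay above 0, beside 47.2% of all genes. The median thus lay on the same side before treatment. These comparisons share arrays with the changes above. After treatment MRPL53 was 0.77 higher (adjusted p = 0.314), MRPL41 0.70 higher (0.641) and MRPS30 0.68 higher (0.431) with anti-IL-15. MRPL38, a protein of the central protuberance, was at -0.79 (0.696) and was detected on 9 of 23 arrays. MRPL53, MRPS21, MRPL33 and MRPL41 were 1.00, 0.83, 0.70 and 0.67 higher in the anti-IL-15 arm before treatment, with adjusted p-values from 0.36 to 0.594.

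By symbol, the medians of the 2 subunits were close in each arm and further apart in the mean of both arms. With anti-IL-15, 87.2% of large and 66.7% of small subunit genes by symbol lay above 0. By place in the structure the small subunit median lay lower with anti-IL-15. Large subunit genes had a median change of 0.24 with anti-IL-15 and 0.18 with control antibody, with 34 and 25 of 39 genes above 0. Small subunit genes had 0.27 and 0.16, with 16 and 17 of 24 above 0. In the mean of both arms the medians were 0.28 and 0.16. By place in the structure the large subunit had 0.25 with anti-IL-15 (36 of 41 above 0) and 0.18 with control antibody (26 of 41), and the small subunit 0.18 (14 of 22) and 0.16 (16 of 22). The 16 mitochondria-specific proteins of the large subunit had medians of 0.34 and 0.30, and the 4 large subunit genes that rose in the mean of both arms (MRPL41, MRPL51, MRPL53 and MRPS18A) came from this class, counting MRPS18A by its place in the structure. The 8 mitochondria-specific proteins of the small subunit, among them MRPS18B, had medians of 0.02 in each arm, with 4 and 5 of 8 above 0 and none called. The 25 large and 14 small proteins with bacterial homologues had medians of 0.23 and 0.29 with anti-IL-15 and of 0.12 and 0.24 with control antibody. No difference between classes was tested.

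Members with several features mostly gave the same direction. Of the 13 genes with a second passing feature, MRPL24 could not be compared, since its second feature had a signal of 0 on 1 array. Among the rest, MRPL11, MRPL30, MRPL43 and MRPS27 had another feature of opposite sign in at least 1 arm. MRPS27, a small subunit protein with pentatricopeptide repeats, changed by -0.30 with anti-IL-15 on its brighter feature and by 0.30 on the other. None of the 7 genes called had a second passing feature. The detection rule admitted 14 members that were detected on fewer than all 23 arrays. Among the 50 members detected on every array the median changes were 0.27 and 0.18. Features of MRPL30, MRPL39, MRPL43 and MRPS31P5 passed with exactly 5 arrays, and MRPL45 and MRPL54 failed with 4. The 16 symbols that did not pass also include MRPL4, MRPS7 and MRPS35, detected on 0 arrays.

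The median change differed widely between animals. Among control animals 1 to 6 the median change of the 64 members was 0.40, 0.28, -0.19, 0.72, 0.05 and -0.18. Among anti-IL-15 animals 1, 2, 4, 5 and 6 it was 0.50, 0.36, 0.09, 0.20 and 0.09. It was thus above 0 in 4 of 6 control and 5 of 5 anti-IL-15 animals, with means of 0.18 ± 0.36 (SD, n = 6) and 0.25 ± 0.18 (SD, n = 5). Large subunit genes ranged from -0.24 in control animal 6 to 0.90 in control animal 4, and small subunit genes from -0.31 in control animal 3 to 0.41 in control animal 4. The share of members with a higher level after treatment ran from 29.7% in control animal 6 to 82.8% in anti-IL-15 animal 1.

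The members' changes were positively correlated across animals, as a description with no test. After the mean of each arm was removed, the median Pearson correlation of the changes of 2 members over the 11 paired animals was 0.29, and it was 0.34 between large subunit genes, 0.20 between small subunit genes and 0.29 between the 2 subunits. It was 0.23 between respiratory chain genes, 0.17 between cytosolic ribosomal protein genes, 0.25 between members and respiratory chain genes and 0.23 between members and cytosolic ribosomal protein genes. Positive medians were thus not limited to the members. Over all pairs of the 9190 genes the median was 0.01. All these pairs share the same animals and arrays. MRPS2 and MRPL37 ran against the rest, with median correlations of -0.39 and -0.38 with the other members.

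Cell number and the 28S level also varied between animals. In control animals 1 to 6 the log2 ratio of sorted cells after to before was -2.32, -2.32, -0.56, -2.92, 0.08 and 0.79, and the 3 with the largest drop in cells had the 3 highest medians of the members. In anti-IL-15 animals 1, 2, 4, 5 and 6 it was -2.71, -2.65, -2.49, -1.25 and -1.28. Animals 1 and 2, with the largest drops of that arm, had its highest medians, 0.50 and 0.36. Animal 4, with a drop of -2.49, had a median of 0.09 while animal 5, with -1.25, had 0.20. The 28S feature rose by over 3 in 5 animals, control 1 and 4 and anti-IL-15 1, 2 and 5. Their medians of the members were 0.40, 0.72, 0.50, 0.36 and 0.20, the highest of each arm. When the log2 of the cell number entered the fit, the median change of the members was -0.16 with anti-IL-15 and -0.06 with control antibody, neither arm nor their mean had a called member, and 2 and 0 of all 9190 genes were called in the 2 arms. Without the 5 animals with the 28S change, a setting chosen after the data were seen, the medians were 0.09 and 0.01 and no member was called in either arm or in their mean. With the 28S level as a covariate, 11 members were called with control antibody, beside 875 of all genes, and 0 with anti-IL-15. What part cell number or 28S RNA has in the members' change was not tested beyond these fits.

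**Figure D3:**
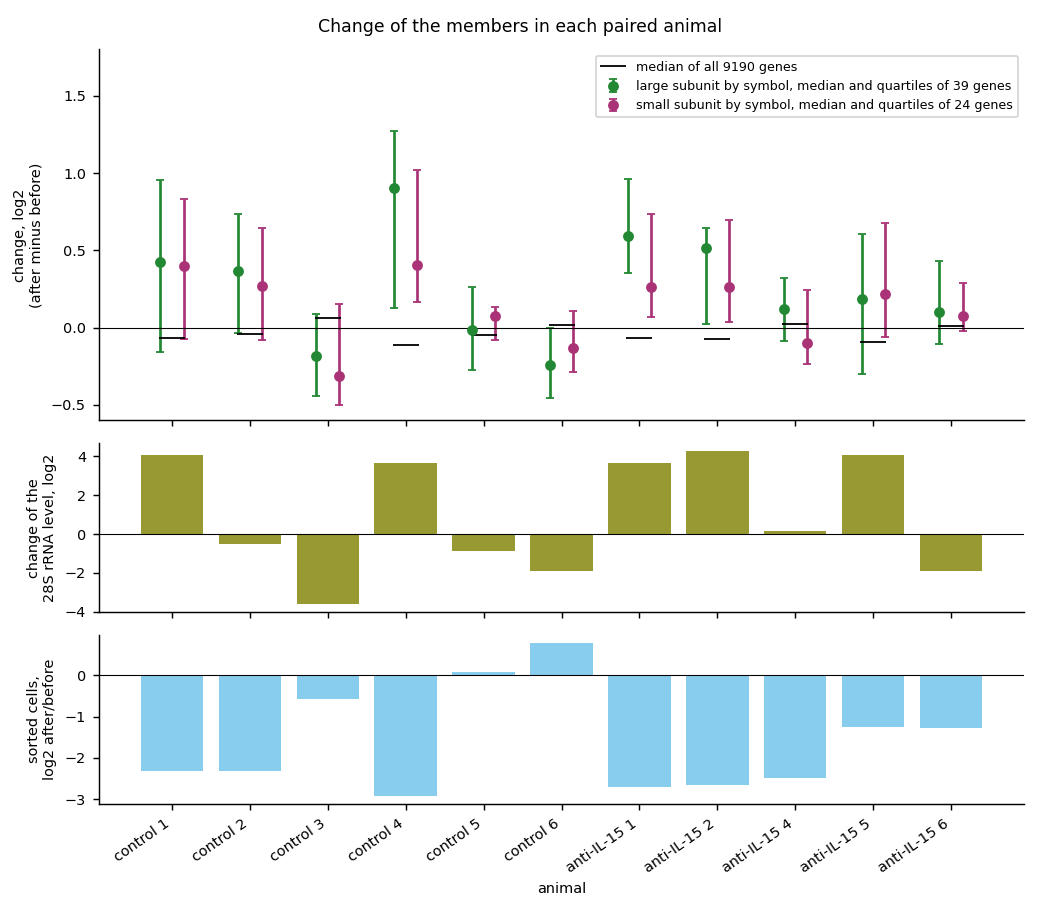
Change of large and small subunit genes in each of the 11 paired animals (top, log2, after minus before; points are medians over genes, bars their quartiles, black dashes the median of all genes), beside the change of the 28S rRNA level (middle, log2) and the log2 ratio of sorted cells after to before (bottom). Control animals 3 and 6, whose medians lay below 0 in both subunits, also had the lowest 28S changes, and cell number fell in 9 of 11 animals.

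Markers of the sorted cells changed too. Over all genes, 44.8% lay above 0 and 2.19% were called with control antibody, beside 42.4% and 0.816% with anti-IL-15. Of 12 measured markers of CD8+ effector memory cells, 11 lay below 0 with control antibody, 4 of them called (CD8A, CCL5, PRF1 and NKG7), and 7 lay below 0 with anti-IL-15, none called. The mean level of this list spanned 10.27 to 10.86 before and 9.74 to 10.59 after control antibody, and 9.90 to 10.31 before and 9.79 to 10.23 after anti-IL-15. Of 6 measured proliferation genes, 6 lay above 0 with anti-IL-15 and 4 were called higher, among them TYMS at 1.53 and CDC20 at 2.09, beside 3 above 0 and none called with control antibody. Their mean level spanned 5.02 to 6.42 before and 5.57 to 7.48 after anti-IL-15, and 4.94 to 5.77 before and 5.07 to 6.06 after control antibody. Of those called, TYMS, CDC20, CCNA2 and CCNB2 were detected on 23, 20, 18 and 9 of 23 arrays. MCM2 and TOP2A, not called, were detected on 22 and 5. MKI67, CCNB1, RRM2 and PCNA, also among the 10 proliferation genes listed, did not pass the detection filter. Whether any of the 6 passed it through 1 group of arrays was not tested. Of 4 measured red cell and platelet genes, all lay above 0 with control antibody and 2 with anti-IL-15, none called, and their mean level spanned 7.18 to 11.37 over all arrays. Of 3 B cell and 3 monocyte genes measured, none was called in either arm, and the mean levels spanned 4.86 to 6.27 and 7.04 to 7.77 over all arrays. MS4A1, of B cells, and LYZ, of monocytes, were detected on 11 and 8 of 23 arrays. Of 4 naive and central memory genes only LEF1 was measured, on 17 of 23 arrays, at -0.47 with anti-IL-15 (adjusted p = 0.301) and 0.42 with control antibody (adjusted p = 0.242). The part of all these marker lists in the members' values was not tested.

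Respiratory chain genes, some of whose partners the mitochondrial ribosome makes, also had medians above 0. The 58 measured genes had median changes of 0.36 with anti-IL-15 and 0.20 with control antibody. Above 0 were 48 (82.8%) and 43 (74.1%), beside 42.4% and 44.8% of all genes. In the mean of both arms, 17 of 58 (29.3%) were called higher, beside 6 of 64 members and 2.95% of all genes. The 66 cytosolic ribosomal protein genes had medians of 0.08 and 0.17, with 45 (68.2%) and 52 (78.8%) above 0. In the mean of both arms 14 were called higher and 1 lower, beside 2.95% and 4.15% of all genes. These counts were not tested against each other.

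The 2 measured small subunit proteins with symbols of another kind, CHCHD1 and DAP3, had medians of 0.46 with anti-IL-15 and 0.43 with control antibody. Each median is only the midpoint of 2 genes, and with control antibody 1 gene lay above 0 and 1 below. The lists of translation factors, assembly, tRNA synthetases, RNA synthesis and regulators had medians of 0.02 or below in each arm. CHCHD1 rose by 0.91 ± 0.23 (SE) with control antibody (adjusted p = 0.0461) and by 0.80 in the mean of both arms (adjusted p = 0.0144), higher in 11 of 11 animals. DAP3, which binds GTP, changed by 0.24 with anti-IL-15 (adjusted p = 0.587) and by -0.05 with control antibody (adjusted p = 0.906). The 11 measured translation factors had medians of 0.02 in each arm with none called in either arm. Among them, the elongation factor GFM1 was at -0.43 and the elongation factor TSFM at 0.23 with anti-IL-15, and the insertase OXA1L at -0.47 and the release factor MTRF1 at 0.30 with control antibody.

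For the 16 measured mitoribosome assembly genes the medians were -0.11 with anti-IL-15 and -0.04 with control antibody, again with none called. TFB1M, which methylates the small subunit RNA, was at -0.44 and MALSU1, an assembly partner of the large subunit, at 0.51 with anti-IL-15, and GTPBP10 was at 0.70 and METTL17 at -0.54 with control antibody. The 13 mitochondrial tRNA synthetases had medians of -0.21 and -0.04, with 11 and 7 below 0. IARS2, which charges isoleucine tRNA, fell by 0.60 in the mean of both arms (adjusted p = 0.0344), and RARS2 and FARS2 were at -0.48 with anti-IL-15 and -0.55 with control antibody. Medians for the 15 genes of mitochondrial RNA synthesis and processing were -0.09 and -0.13. FASTKD1, an RNA-binding protein of mitochondria, fell by 0.84 ± 0.18 (SE) with anti-IL-15 (adjusted p = 0.0391), while FASTKD5 of the same family, named after its values were seen, was at 0.78 (adjusted p = 0.0896) and higher in 5 of 5 animals. MTERF1 and FASTK were at 0.77 and 0.54 with control antibody (adjusted p = 0.0634 and 0.072). The 7 regulators of mitochondrial biogenesis had medians of -0.16 and -0.08 and no call, with GABPA at -0.64 and GABPB1 at 0.34 with anti-IL-15, and ESRRA and PPRC1 each at -0.39 with control antibody.

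**Figure D4:**
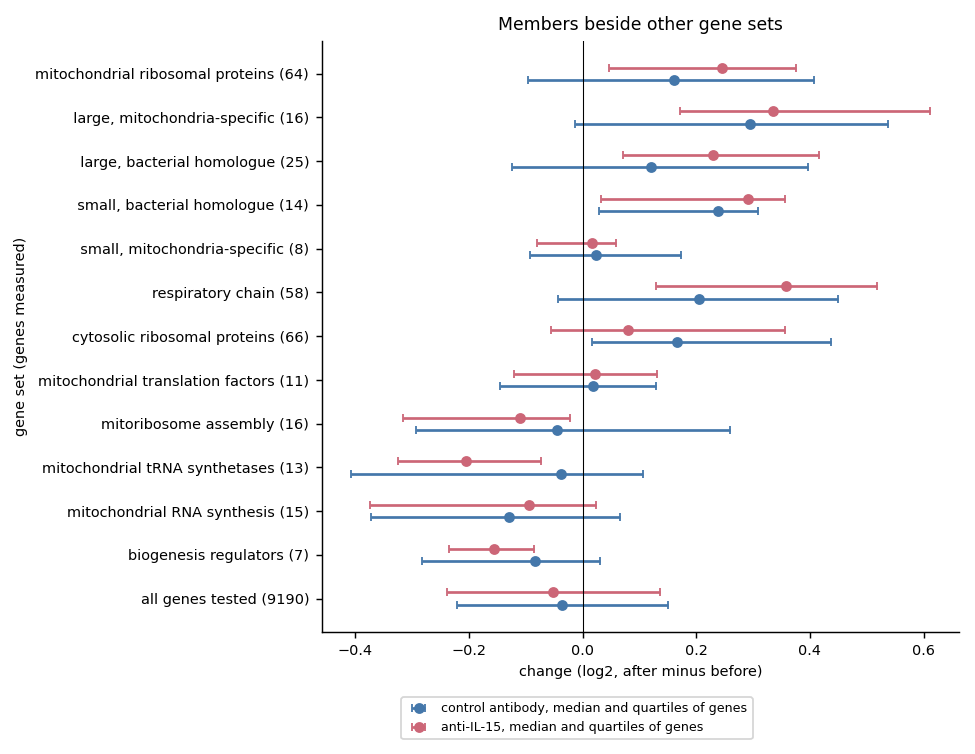
Median change and quartiles over genes (horizontal axis, log2, after minus before) for the 64 members, their classes by place in the structure and origin, and the other gene sets (vertical axis, number of genes measured in brackets), for each arm. The members and the respiratory chain lie above 0 in both arms, the mitochondria-specific small subunit proteins lie at 0.02, and assembly factors and tRNA synthetases lie below 0.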

How the data were processed

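Per the labels' protocols, total RNA of sorted CD8+ TEM was amplified from an equal input mass, biotin labelled and hybridised to Illumina bead arrays. The authors deposited intensity signals, not normalised, with a detection p-value per feature and array, and a quantile normalised log2 table, for which the submitters' processing notes name limma (version not given in the sources used here). Intensities were background corrected by normexp with an offset of 16, the negative control distribution being estimated through the detection p-values, quantile normalised and log2 transformed (limma 3.58.1, R 4.3.3). Features with a signal of 0 on any array (9 in all) were left out of the fits. Gene names came from the platform annotation, and 63 of the 64 member names matched a macaque gene name. Changes were fitted with animals as a block and eBayes with trend. Comparisons between arms at 1 time were fitted on the arrays of that time. Same-animal arrays deviated together (correlations 0.05 to 0.51, other animals' median -0.06), and the pairing comes from the donor labels. The animal after treatment with no array before adds nothing to the paired changes. The fit was tested on simulated data. Members and lists were chosen with earlier results of these data known. Named members are those called in any of 6 comparisons, up to 6 per direction with the largest changes shared by every animal of an arm, up to 6 with the largest differences of the changes, up to 4 with the largest differences between arms at each time, and MRPS18A, MRPS18B, MRPS18C and MRPS30. Alternatives were other background, scaling, filter, feature, trend, covariate and block choices and leaving out each animal. Listed genes named are those called, or the 2 with the smallest p in each arm. The number of arrays limits the precision. Figures were drawn with matplotlib.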

Additional observations from a re-analysis of the deposited data

Results flagged for a closer look

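In 6 named members 1 array stood apart from the others of its group by Dixon's criterion, which chance meets in about 1 of 20 groups; 84 groups were tested. Control animal 3 before treatment was high for MRPL51, at 11.88 with the other 5 arrays from 10.56 to 11.06, and for MRPS15, at 9.239 with the others from 8.353 to 8.599. On the same array the median over small subunit genes, each centred on the mean of its group means, was 0.2272, with the other arrays from -0.2452 to -0.09495. The anti-IL-15 animal with no array before treatment was low after it for MRPL53, at 9.187 beside 9.754 to 10.07, and for MRPS21, at 6.447 beside 7.136 to 7.41. Before anti-IL-15, MRPL16 was low in animal 2, at 7.751 beside 8.241 to 8.419, and MRPL38 was high in animal 5, at 6.35 beside 4.321 to 4.666.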

How the results depend on the processing

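For single named genes in the comparisons of the report, 80 of 1888 values under the alternatives had the other sign, 23 of them with cell number as a covariate, 27 on leaving out 1 animal and 16 without the 5 animals with a 28S change over 3. Of 273 values for differences called with the main settings, 1 had the other sign and 65 lost the call. Anti-IL-15 member calls went from 1 to 0 with no background correction, no detection filter, the authors' deposited log2 table, all passing features tested, no trend, no replicate block or a random replicate block. With cell number as a covariate 0 members were called in either arm or in their mean; the medians were -0.16, -0.20 (large) and -0.089 (small) with anti-IL-15 and -0.10 and -0.12 (large) in the mean of both arms, and MRPL41 there was -0.076. With the 28S covariate the calls were 0 with anti-IL-15 and 11 with control antibody, and the small subunit anti-IL-15 median was 0.030. Control calls were 5 of 50 members with detection on all arrays, beside 5.93% of the 4706 genes then tested. They were 5 of 64 with a random replicate block, beside 2.00% of all genes. The mean of both arms gave 4 with no replicate block, beside 1.63% of all genes. Without the 5 animals with a 28S change over 3, chosen after seeing the data, calls were 0 in both arms and in their mean, and the small subunit anti-IL-15 median was -0.037.

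Leaving out 1 animal gave 0 to 3 calls with anti-IL-15 (3 without control animal 4; 0 without anti-IL-15 animal 1, 2, 4 or 5 or control animal 1 or 5). Control calls ran from 0 to 5 (0 without control animal 1; 1 without control animal 2 or 4; 5 without control animal 3 or anti-IL-15 animal 6), and the mean of both arms gave 4 to 12 (4 without control animal 1 or anti-IL-15 animal 1 or 5; 11 without control animal 3 or 6; 12 without anti-IL-15 animal 6). The shares called over all genes varied too. With anti-IL-15 the share was 1.39% without control animal 4, and 0.653% and 0.316% without control animals 1 and 5. It was 0.0544%, 0.12%, 0.229% and 0.457% without anti-IL-15 animals 1, 2, 4 and 5. With control antibody it was 0%, 0.174%, 3.99% and 0.326% without control animals 1, 2, 3 and 4, and 3.26% without anti-IL-15 animal 6. In the mean of both arms it was 2.07%, 9.76% and 7.64% without control animals 1, 3 and 6. It was 1.76%, 2.92% and 10.2% without anti-IL-15 animals 1, 5 and 6. The members' median ran from 0.14 to 0.31 with anti-IL-15 and from 0.03, without control animal 4, to 0.23 with control antibody.

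Over all 9190 genes, calls were 75 with anti-IL-15, 201 with control antibody and 652 in the mean of both arms. In that order they were 27, 71 and 282 of 20044 genes with no detection filter (0.135%, 0.354% and 1.41%). Of 9190 genes (9189 with 28S), they were 2, 0 and 0 with cell number and 20, 875 and 328 with 28S. They were 1, 23 and 150 with no replicate block and 15, 184 and 427 with a random replicate block. Without the 5 animals they were 5, 0 and 6. The first 2 were 34 and 105 with no trend and 66 and 350 with 75th percentile scaling. With all passing features tested they were 41 and 339 of 15744 features. With detection on all arrays they were 49 and 279 of 4706 genes (1.04% and 5.93%). The cause of these shifts was not tested. The file headers name no slide, so a slide block was not run. The number of arrays, and for MRPL13 the background, limit the precision.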
